A study of Homo sapiens with 12 samples.

Results

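Plasma membrane amino acid transporters were followed through 12 RNA-seq libraries of HEK293T, a long-established human cell line from embryonic kidney that takes up plasmids readily. The group holds 10 genes of the 41878 rows in the count table. They were picked by name, as transporters that carry amino acids across the cell surface, around SLC38A2, which stood out among all genes for its difference between fed and starved cells in the replicates numbered 1 and 2. The fed-to-starved difference in those replicates therefore chose the group and is given below as a description, with no test.

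The cells had been transfected with 1 µg of plasmid in the Effectene reagent, either a control vector or a TRPML3 plasmid. TRPML3 is a cation channel of endosomes and lysosomes encoded by MCOLN3. Before RNA extraction the cells either stayed in 10% serum (fed) or were kept in 0% serum for 4 h (starved), a treatment the submitters used to induce autophagy. This gave 4 groups of 3 biological replicates: vector fed, vector starved, TRPML3 fed and TRPML3 starved. All groups were transfected, and all had been grown in DMEM/F12 with serum, bicarbonate and penicillin-streptomycin. The labels describe starvation by serum alone and give neither the amino acid content of the starvation medium nor the share of cells that took up the plasmid. In such bulk samples a change in the RNA of each cell and a change in how many cells carry it cannot be told apart.

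Cells take up amino acids through carriers that differ in what drives them. Sodium-coupled carriers such as those of system A pull small neutral amino acids, glutamine among them, into the cell against a gradient, while exchangers such as the light chains bound to SLC3A2 trade an internal amino acid for an external one. The internal glutamine that system A supplies can thus be exchanged for leucine, an amino acid that the kinase mTORC1 senses. Several of these genes are known targets of ATF4, a transcription factor whose translation goes up when amino acids run short, and SLC38A2 is a textbook case of a transporter gene induced by amino acid shortage and by osmotic stress.

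The promoters of the members were searched for short motifs of the factors known to act on such genes, in windows from 250 bases before to 50 bases after each start site (RefSeq, GRCh38.p14). Entries were found for 9 of the 10 members, with 16 windows between them, and for all but SLC7A11. The core of the amino acid response element was written as TGATGNAA and searched on both strands. It lay in 5 of the 16 windows, each of a different member, and in 3.62% of 35116 promoters of the same length. The matching 30 bases of these 5 are shown because they hold the motif bound by ATF4 and its C/EBP partners, with the motif, or its reverse complement, in capitals.
SLC38A1 (chr12:46266502-46266531, minus strand): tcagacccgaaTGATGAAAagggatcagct
SLC7A1 (chr13:29595663-29595692, minus strand): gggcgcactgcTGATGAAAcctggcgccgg
SLC1A4 (chr2:64989381-64989410, plus strand): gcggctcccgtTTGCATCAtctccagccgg
SLC1A5 (chr19:46784893-46784922, minus strand): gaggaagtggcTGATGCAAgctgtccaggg
SLC3A2 (chr11:62881719-62881748, plus strand): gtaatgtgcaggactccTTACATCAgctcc
The match lay 4 bases before the start site in SLC38A1, 7 before it in SLC1A4 and 97 before it in SLC1A5, while in SLC7A1 and SLC3A2 it began at bases 8 and 38 after it. The motif CACGTG is the E-box bound by MYC and by the lysosomal regulator TFEB. It lay in 3 of the 16 windows, those of SLC43A1, SLC1A5 and SLC7A5, and in 7.26% of all promoters. The cAMP response element TGACGTCA was in none of the members' windows and in 1.85% of promoters. The antioxidant response core TGACNNNGC, bound by NRF2, lay in 4 of the 16 windows, of SLC1A5, SLC3A2, SLC7A1 and SLC7A5, and in 13.3% of promoters. All matches in SLC38A1, SLC1A4, SLC1A5 and SLC3A2 lay within the annotated gene, where the member also has a start site further upstream. Matches to different motifs did not overlap in the members' windows. The E-box stretch of SLC43A1 follows, with the 250 bases before the start of SLC7A5 and, for SLC38A2, the 156 bases of its window that lie outside the annotated gene. SLC7A5 and SLC38A2 are shown at length because they were the members whose levels went opposite ways in the results below. Capitals mark the E-box.
SLC43A1 (chr11:57515796-57515825, minus strand): agcgggcgagtCACGTGcgcgtgaaactcg
SLC7A5 (chr16:87869508-87869757, minus strand): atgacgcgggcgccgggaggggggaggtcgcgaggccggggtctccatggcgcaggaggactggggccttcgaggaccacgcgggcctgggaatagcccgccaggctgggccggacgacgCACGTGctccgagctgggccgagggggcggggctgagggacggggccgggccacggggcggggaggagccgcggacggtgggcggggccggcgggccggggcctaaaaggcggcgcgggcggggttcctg
SLC38A2 (chr12:46372868-46373023, minus strand): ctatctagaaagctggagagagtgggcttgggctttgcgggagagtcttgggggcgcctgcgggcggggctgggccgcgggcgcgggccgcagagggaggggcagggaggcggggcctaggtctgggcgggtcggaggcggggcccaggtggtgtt
No match to any of the 4 motifs was found in the SLC38A2 window, which says only that these letters are not in it. With windows from 150 bases before the start, the same members held each motif. A match is a feature of the sequence and was not tested as a binding site.

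Library totals ran from 33101540 to 43700547 counts, and levels are given as CPM (counts scaled to a common library total) after TMM scaling. MCOLN3 had 9.30 to 18.4 CPM in the 6 vector libraries and 4926 to 58195 CPM in the 6 TRPML3 libraries, as the labels require. Its log2 fold change of TRPML3 over vector was 10.1 in fed and 11.8 in starved cells. Without the libraries numbered 3 these values were 8.57 and 12.4. In the libraries numbered 3 its change from fed to starved, averaged over plasmids, was -0.80. The amount of MCOLN3 RNA thus varied between the TRPML3 libraries, and its part in the TRPML3 results below was not tested. Markers of HEK293T cells were present, from PAX2 at 0.84 to 5.3 CPM up to VIM at 182 to 585 CPM. The leukocyte and endothelial genes PTPRC, CD3E, CDH5 and VWF had a median of 0, and CD14 and PECAM1 medians of 0.072 and 0.12 CPM. The fibroblast gene COL1A1 had a median of 12.8 CPM, above the 3.54 CPM of PAX2, while COL1A2 had 0 and DCN 0.30. The hepatocyte genes ALB and APOA1 had medians of 0.49 and 0 CPM. The libraries numbered 3 stood apart. The mean rank correlation of the library labelled vector fed, number 3, was 0.934 with the fed and 0.949 with the starved libraries numbered 1 and 2, and that of the library labelled TRPML3 fed, number 3, was 0.936 and 0.947. Each of them was thus closer to starved than to fed libraries of the other numbers. The libraries labelled starved and numbered 3 had 0.932 with fed and 0.937 with starved libraries (vector), and 0.935 and 0.932 (TRPML3). Whether the serum labels of the libraries numbered 3 hold was not tested, and every direction given for them is that of the labels and would turn if their fed and starved labels were exchanged. Transcripts of the mitochondrial genome made up 4.83 to 5.70% of counts in libraries numbered 3, against 2.81 to 4.40% and 1.05 to 2.52% in those numbered 1 and 2. Their part in the results below was not tested, and results that rest on them are given with and without them.

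All 10 members passed the filter on low counts. Between genes, levels were compared as CPM per kilobase of exon. By the median over 12 libraries SLC38A2 came first with 100.6, followed by SLC1A5 with 69.2, SLC3A2 with 62.0 and SLC7A5 with 40.5 CPM per kilobase. SLC38A1 (23.5), SLC7A1 (20.0) and SLC7A11 (6.19) lay in the middle, and SLC43A1 (3.02), SLC1A4 (2.80) and SLC6A9 (1.42) were lowest on the same scale. Ranges over the libraries overlapped for every pair of neighbours in this order. The first 4 genes did not overlap with the last 3, since their lowest value, 20.5 CPM per kilobase in SLC7A5, was above the highest of the last 3, 5.65 in SLC1A4. With coding length in place of exon length SLC38A2 stayed first and SLC6A9 last, while SLC1A5 moved from rank 2 to rank 4 and SLC38A1 from rank 5 to rank 3.

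**Figure D1:**
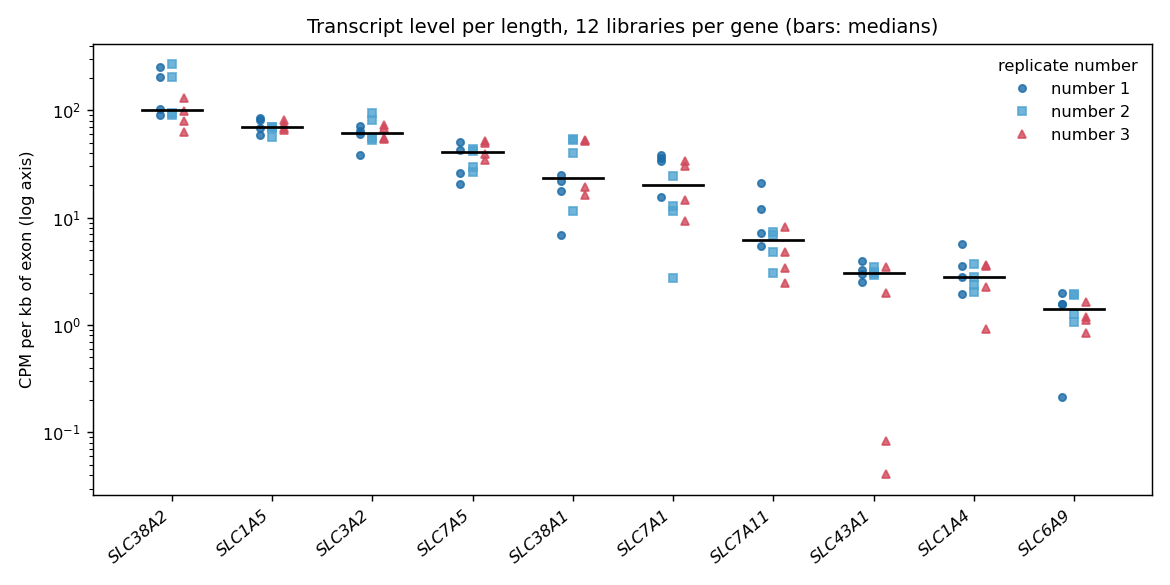
Level of each transporter gene per length in the 12 libraries, on a log axis in CPM per kilobase of exon; points are libraries, marked by replicate number, and bars are medians over 12 libraries. SLC38A2 has the highest median at 100.6 and SLC6A9 the lowest at 1.42, and 2 libraries numbered 3 lie far below the others for SLC43A1.

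System A was represented by SLC38A1 and SLC38A2, sodium-coupled carriers of glutamine, alanine and other small neutral amino acids. SLC38A2 (ENSG00000134294, chr12:46358189-46372867, minus strand, GENCODE 29 on GRCh38) had 1341, 1354 and 410.2 CPM in vector fed libraries 1, 2 and 3, and 599.3, 601.7 and 648.0 CPM in vector starved libraries. In TRPML3 fed libraries it had 1673, 1759 and 518.4 CPM, and in TRPML3 starved libraries 680.3, 619.3 and 862.0 CPM. The fed libraries numbered 1 and 2 were the 4 highest of the 12 and the fed libraries numbered 3 the 2 lowest, so the fed and starved groups overlapped with either plasmid. The group means were 1035 ± 541 CPM with vector in fed cells, 616.3 ± 27.5 with vector in starved cells, 1317 ± 693 with TRPML3 in fed cells and 720.5 ± 126 with TRPML3 in starved cells (SD, n = 3).

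SLC38A1 (ENSG00000111371, chr12:46183063-46270017, minus strand) lies on the same chromosome and spread more widely within groups. Its CPM was 68.8, 403.7 and 520.3 with vector in fed cells, 219.6, 535.9 and 192.0 with vector in starved cells, 175.9, 529.3 and 523.1 with TRPML3 in fed cells and 250.9, 116.2 and 163.4 with TRPML3 in starved cells. The TRPML3 starved group held no library above 251 CPM, but every group overlapped with every other. The highest library was 7.79 times the lowest, against 4.29 times for SLC38A2 and a median of 2.51 times over the 9010 genes with a median of at least 10 CPM.

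The cationic carrier SLC7A1 (CAT1, ENSG00000139514, chr13:29509410-29595688, minus strand) brings in arginine and lysine. Its CPM was 118.9, 99.1 and 261.6 with vector in fed cells, 260.1, 21.0 and 72.1 with vector in starved cells, 273.7, 87.9 and 230.6 with TRPML3 in fed cells and 291.8, 189.0 and 112.5 with TRPML3 in starved cells. Vector starved 2 was the lowest library and lay 13.9 times below TRPML3 starved 1, the highest. All groups overlapped.

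The heteromeric exchangers consist of the glycoprotein SLC3A2 (CD98 heavy chain), which carries its partners to the cell surface, and a light chain that does the transport. SLC7A5 (LAT1, ENSG00000103257, chr16:87830023-87869488, minus strand) exchanges glutamine for leucine and other large neutral amino acids. It had 124.4, 125.2 and 235.3 CPM with vector in fed cells, 201.4, 207.5 and 187.3 with vector in starved cells, 97.1, 139.9 and 246.1 with TRPML3 in fed cells and 240.6, 196.9 and 161.7 with TRPML3 in starved cells. The fed libraries numbered 1 and 2 were the 4 lowest of the 12, which reverses their place in SLC38A2, and TRPML3 fed 3 was the highest. Fed and starved groups overlapped through the libraries numbered 3.

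SLC3A2 (ENSG00000168003, chr11:62856102-62888875, plus strand) had 200.2, 274.7 and 276.5 CPM with vector in fed cells, 330.9, 419.3 and 282.8 with vector in starved cells, 311.0, 286.8 and 352.0 with TRPML3 in fed cells and 369.7, 487.6 and 375.0 with TRPML3 in starved cells. The 3 starved libraries were above the 3 fed ones with either plasmid, and the 3 TRPML3 fed libraries were above the 3 vector fed ones. It was among the least variable members, with a highest library 2.44 times the lowest.

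SLC7A11 (xCT, ENSG00000151012, chr4:138164097-138242349, minus strand) exchanges glutamate for cystine, from which cells make glutathione. It had 52.3, 71.3 and 78.2 CPM with vector in fed cells, 69.3, 67.0 and 32.6 with vector in starved cells, 114.9, 29.7 and 23.6 with TRPML3 in fed cells and 202.8, 46.2 and 46.5 with TRPML3 in starved cells. With the TRPML3 plasmid the libraries numbered 1 were the highest of their groups, and the 3 vector fed libraries lay inside the TRPML3 range. All groups overlapped.

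The SLC1 family supplied SLC1A4 (ASCT1) and SLC1A5 (ASCT2), sodium-dependent exchangers of alanine, serine and cysteine, of which SLC1A5 also carries glutamine. SLC1A5 (ENSG00000105281, chr19:46774883-46788594, minus strand) was the steadiest member, with 195.9, 186.3 and 270.3 CPM with vector in fed cells, 272.6, 234.4 and 229.7 with vector in starved cells, 227.6, 231.2 and 248.8 with TRPML3 in fed cells and 283.1, 229.9 and 218.3 with TRPML3 in starved cells. Its highest library was 1.52 times its lowest, and the 2 lowest were vector fed 1 and 2. SLC1A4 (ENSG00000115902, chr2:64988477-65023865, plus strand) had 13.6, 16.2 and 24.5 CPM with vector in fed cells, 19.6, 14.1 and 15.6 with vector in starved cells, 39.2, 25.5 and 24.9 with TRPML3 in fed cells and 24.8, 19.3 and 6.34 with TRPML3 in starved cells. The TRPML3 fed libraries held the 3 highest values of the 12, just above vector fed 3 and TRPML3 starved 1.

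SLC6A9 (GlyT1, ENSG00000196517, chr1:43991500-44031467, minus strand), a sodium- and chloride-coupled carrier of glycine, was the least abundant. It had 8.07, 5.55 and 8.52 CPM with vector in fed cells, 8.15, 10.0 and 4.32 with vector in starved cells, 1.10, 6.59 and 6.13 with TRPML3 in fed cells and 10.3, 9.73 and 5.70 with TRPML3 in starved cells. TRPML3 fed 1 was the lowest library and the other 11 lay between 4.32 and 10.3 CPM. All groups overlapped.

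SLC43A1 (LAT3, ENSG00000149150, chr11:57484534-57515786, minus strand) is a uniporter of leucine and other large neutral amino acids that needs neither sodium nor a heavy chain. It had 13.9, 10.8 and 0.14 CPM with vector in fed cells, 11.6, 12.2 and 7.04 with vector in starved cells, 8.85, 10.9 and 0.29 with TRPML3 in fed cells and 10.6, 10.4 and 12.1 with TRPML3 in starved cells. The libraries labelled fed and numbered 3 thus lay far below the other 10. The counts behind these values were 5 in vector fed 3 and 9 in TRPML3 fed 3, against 313 to 505 in the other 10. Of the 9010 genes with a median of at least 10 CPM, 608 (6.75%) had some library under a 10th of their median, and 7 of them, SLC43A1 included, had it in both of these libraries.

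**Figure D2:**
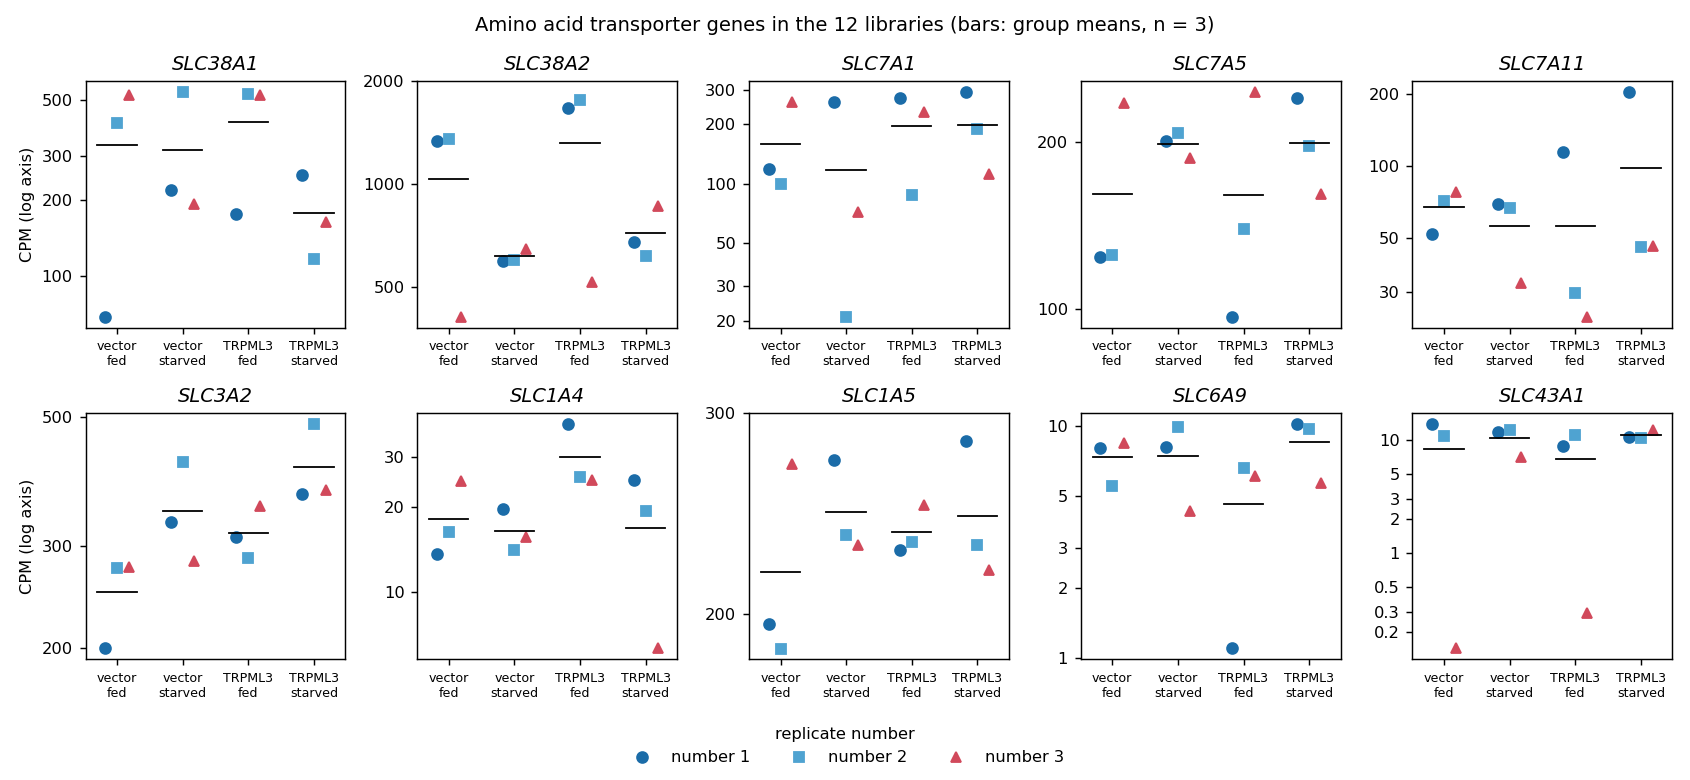
CPM of the 10 transporter genes in each library, on log axes that differ between panels; points are libraries, with shape and colour giving the replicate number, and bars are group means (n = 3). In SLC38A2 the fed libraries numbered 1 and 2 lie at 1341 to 1759 CPM and those numbered 3 at 410.2 and 518.4, and in SLC43A1 the fed libraries numbered 3 lie at 0.14 and 0.29.

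The first comparison asked how the transporters differed between starved and fed cells. In the replicates numbered 1 and 2, the contrast that chose the group, SLC38A2 was lower in all 4 starved libraries, with a log2 fold change of -1.28 (0.41 times the fed level), whereas SLC7A5 was higher in all 4, with a log2 fold change of 0.80 (1.74 times). SLC3A2 (0.59), the partner of SLC7A5, and SLC6A9 (0.90) were also higher without overlap. These were 4 of 10 members whose fed and starved libraries did not overlap, beside 20.2% of all genes. SLC7A11 (0.46), SLC7A1 (0.39), SLC1A5 (0.28), SLC43A1 (0.02), SLC38A1 (-0.13) and SLC1A4 (-0.19) overlapped. Over all genes tested 4.27% passed an adjusted p of 0.05 in this contrast, and nothing is read from either share because the contrast chose the group. The median log2 fold change was 0.34 over the members and -0.03 over all genes.

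In the replicates numbered 3, starvation was compared with edgeR's quasi-likelihood test and Benjamini-Hochberg adjustment over 18030 genes. The choice of members did not use the levels in these 4 libraries, but in this fit each of them has a coefficient of its own. The spread behind the errors and p-values therefore came from the 8 libraries numbered 1 and 2 alone, the ones that chose SLC38A2, and the spread among libraries numbered 3 did not enter. Errors of log2 fold changes are standard errors (SE) throughout. SLC38A2 had 410.2 and 518.4 CPM in the libraries labelled fed and 648.0 and 862.0 CPM in those labelled starved, a log2 fold change of 0.70, so its direction was opposite to that in replicates 1 and 2. Its SE of 0.10 and adjusted p of 0.0497 in this edgeR fit are not independent of the choice of the gene and are read as no support. SLC43A1 had 0.14 and 0.29 CPM in fed and 7.04 and 12.1 CPM in starved libraries, a log2 fold change of 5.47 ± 0.31 (edgeR adjusted p = 0.00502) or 44.3-fold. These were 2 of 10 members past the threshold, beside 0.893% of all genes (0.416% higher and 0.477% lower in starved libraries). Nothing is read from that count, since it includes SLC38A2 and the spread came from the libraries that chose this gene.

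With only the 4 libraries numbered 3 in the edgeR fit, where the spread is their own, the log2 fold changes were 0.69 for SLC38A2 and 5.45 for SLC43A1 and the adjusted p was 0.425 for both. No gene of the whole table passed there. In the 12-library fit the adjusted p of SLC38A2 was also above the threshold with a filter of 10 counts in every library (0.0561), with no filter (0.0725) and with each library left out in turn (0.0749 to 0.225), and below it in the 6 other settings. That of SLC43A1 was 0.0157 to 0.0237 with each library left out.

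The other 8 members did not pass in the 12-library fit. SLC1A4 went from 24.5 and 24.9 CPM in fed to 15.6 and 6.34 CPM in starved libraries, a log2 fold change of -1.32 ± 0.32. With 1 library left out it ran from -1.98 to -0.66 and did not pass by edgeR. By DESeq2's Wald test SLC1A4 passed, where far more of all genes were called than by edgeR. SLC7A5, higher in starved cells in the other replicates, had a log2 fold change of -0.47 ± 0.21 (adjusted p = 0.300, edgeR). SLC38A1 (-1.56 ± 0.99) and SLC7A1 (-1.45 ± 1.10) had wide errors. SLC6A9 (-0.54 ± 0.75), SLC1A5 (-0.21 ± 0.15), SLC7A11 (-0.14 ± 0.83) and SLC3A2 (0.06 ± 0.23) were nearer to 0. At an unadjusted p under 0.05 there were 3 members, SLC38A2 among them, beside 18.5% of all genes. Fed and starved libraries did not overlap for 8 members, beside 50.5% of all genes with 2 libraries against 2. The median log2 fold change was -0.34 over the members and 0.04 over all genes.

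Over all replicates, the description of starvation mixed these opposite values. The log2 fold change of SLC38A2 averaged over plasmids was -0.81 with all 12 libraries, that of SLC7A5 0.30 and that of SLC43A1 0.52. The fed-to-starved change differed in sign between replicates 1 and 2 and replicates 3 for 6 members: SLC38A2, SLC7A5, SLC7A1, SLC7A11, SLC1A5 and SLC6A9. The share of all genes with such a change of sign was not counted, so nothing particular to the members is read from it. For SLC7A1 and SLC7A11 the sign rested on single libraries, since leaving out 1 library at a time gave -0.98 to 0.91 and -0.25 to 1.11 in replicates 1 and 2, and -1.26 to 0.98 for SLC7A11 in replicates 3. SLC3A2 and SLC43A1 had values above 0 and SLC38A1 and SLC1A4 below 0 on both sides. Near 0 were SLC43A1 in replicates 1 and 2 (0.02) and SLC3A2 in replicates 3 (0.06), with fed and starved libraries overlapping. The sign in replicates 1 and 2 turned for SLC43A1 with library size scaling and for SLC38A1 in limma. That sign also turned with some single libraries left out, which gave -0.068 to 0.11 for SLC43A1 and -0.52 to 0.76 for SLC38A1. This difference between replicate sets was not tested, since one side of it chose the members.

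**Figure D3:**
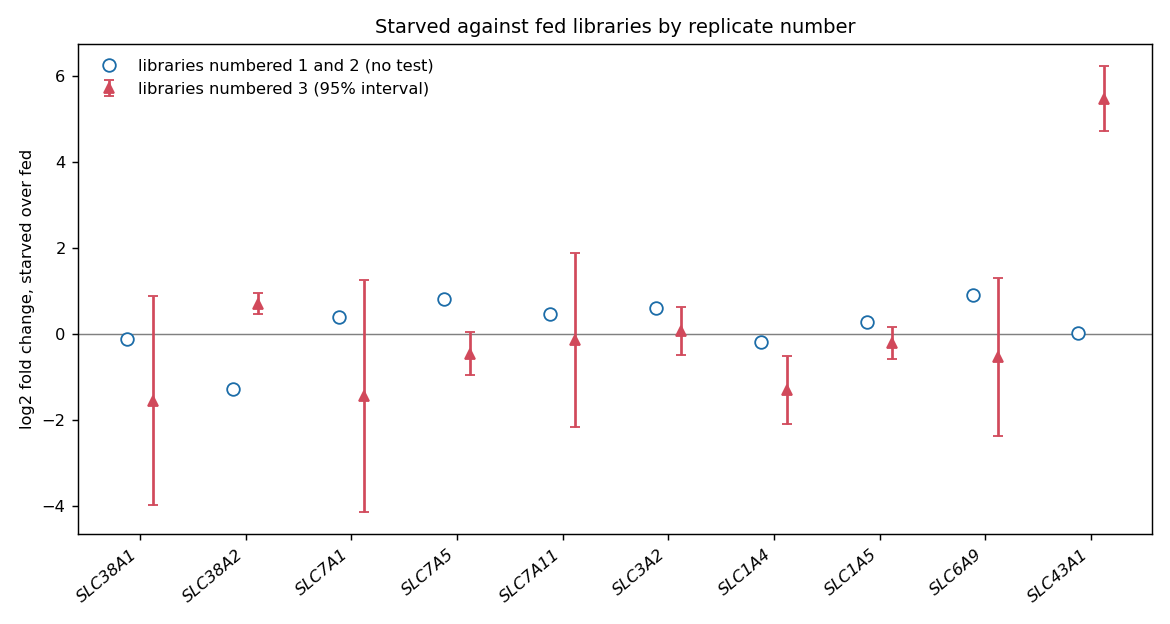
Log2 fold change of starved over fed cells for the 10 transporter genes, averaged over plasmids, in the replicates numbered 1 and 2 (description only) and in the replicates numbered 3 (with 95% intervals, whose width comes from the spread of replicates 1 and 2). SLC38A2 lies at -1.28 in the former and at 0.70 in the latter, and SLC43A1 at 0.02 and 5.47.

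The second comparison asked whether the TRPML3 plasmid altered the transporters, a contrast that the choice of members did not use. No transporter passed the edgeR threshold in fed or in starved cells or averaged over both, and 0 of 10 reached an unadjusted p under 0.05 in any of the 3 contrasts without a block. Over all genes 0.0111% passed the adjusted threshold in fed cells, 0.00555% in starved cells and 0.0111% on average, and 2.21%, 2.2% and 2.62% had an unadjusted p under 0.05. Same-numbered libraries of the 2 plasmids deviated together to a like extent in both serum states, with r of 0.11 to 0.33 in fed and 0.095 to 0.32 in starved cells. A block on that number gave fed and starved libraries the same shift. It left 0 genes past the threshold for fed cells in place of 2, and 0 for starved cells in place of 1. The count of members past the threshold stayed at 0. Numbers did not go together between serum states, so this block did not pair the libraries within a serum state. A fit paired within fed or within starved cells was not run. With the block SLC3A2 had an unadjusted p of 0.0444 by edgeR in the average effect. That makes 1 of 10 members at an unadjusted p under 0.05, beside 544 of the 18030 genes tested in the same fit. By DESeq2's Wald test 30 genes passed in fed and 43 in starved cells, with 0 members among them.

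SLC3A2 came nearest. Its mean was 250.5 ± 43.5 CPM in vector fed and 316.6 ± 33.0 in TRPML3 fed cells, and 344.3 ± 69.2 and 410.8 ± 66.6 CPM in the starved groups (SD, n = 3). The average TRPML3 effect was a log2 fold change of 0.30 ± 0.14 (SE, 95% interval -0.01 to 0.60, unadjusted p = 0.0554 by edgeR, adjusted p 1.0). The unadjusted p of SLC3A2 was 0.0494 with DESeq2 size factors in edgeR, 0.0445 in limma and 0.0604 by DESeq2's Wald test, and without vector starved 2 it was 0.0200 by edgeR. SLC38A2 had an average log2 fold change of 0.29 ± 0.34 (95% interval -0.46 to 1.03), an error that takes in the distance of the fed libraries numbered 3 from the others. Both genes were higher with TRPML3 in 6 of 6 same-numbered pairs of libraries, as 4.13% of all genes were in 1 direction or the other, and SLC1A4 in 5 of 6. In fed cells the TRPML3 libraries of SLC3A2 and SLC1A4 lay above all vector libraries, which made 2 of 10 members without overlap beside 7.09% of all genes. In starved cells no member was without overlap, beside 6.58% of all genes, and with both serum states pooled none was, beside 0.155%.

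The remaining average log2 fold changes were 0.53 ± 0.55 for SLC7A1, 0.38 ± 0.32 for SLC1A4, 0.27 ± 0.49 for SLC7A11, 0.05 ± 0.12 for SLC1A5, 0.00 ± 0.24 for SLC7A5, -0.10 ± 0.85 for SLC43A1, -0.24 ± 0.40 for SLC6A9 and -0.26 ± 0.48 for SLC38A1. The median was 0.16 over the 10 members and -0.01 over all genes. The intervals limit what could be seen. For SLC1A5, the steadiest member, the 95% interval ran from -0.22 to 0.32, while for SLC43A1 it ran from -1.97 to 1.78. With all 12 libraries a change of several fold would thus not have been detectable in SLC43A1. Without the libraries numbered 3 its log2 fold change was -0.24 ± 0.17, with a 95% interval of -0.66 to 0.18.

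Without the 4 libraries numbered 3, errors of some members became smaller. SLC1A4 had 39.2 and 25.5 CPM with TRPML3 against 13.6 and 16.2 CPM with vector in fed cells, and 24.8 and 19.3 against 19.6 and 14.1 CPM in starved cells. Its average TRPML3 effect was then 0.76 ± 0.23 (95% interval 0.21 to 1.32, unadjusted p = 0.0150 by edgeR). SLC38A2 had 1673 and 1759 against 1341 and 1354 CPM in fed cells, and 680.3 and 619.3 against 599.3 and 601.7 CPM in starved cells, with an average log2 fold change of 0.24. The 8 libraries left are those that chose SLC38A2, so the unadjusted p of 0.0127 by edgeR for this gene is no independent test. With it, 2 of 10 members were at an unadjusted p under 0.05, beside 4.59% of all genes. No member passed adjustment (smallest adjusted p 1.0), as 0.0166% of all genes did. In fed cells alone the same 2 members were at an unadjusted p under 0.05, beside 4.1% of all genes, with log2 fold changes of 1.13 ± 0.32 for SLC1A4 and 0.36 for SLC38A2. In starved cells 0 of 10 were, beside 4.1% of all genes, and none passed adjustment, as 0.00554% of all genes did.

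**Figure D4:**
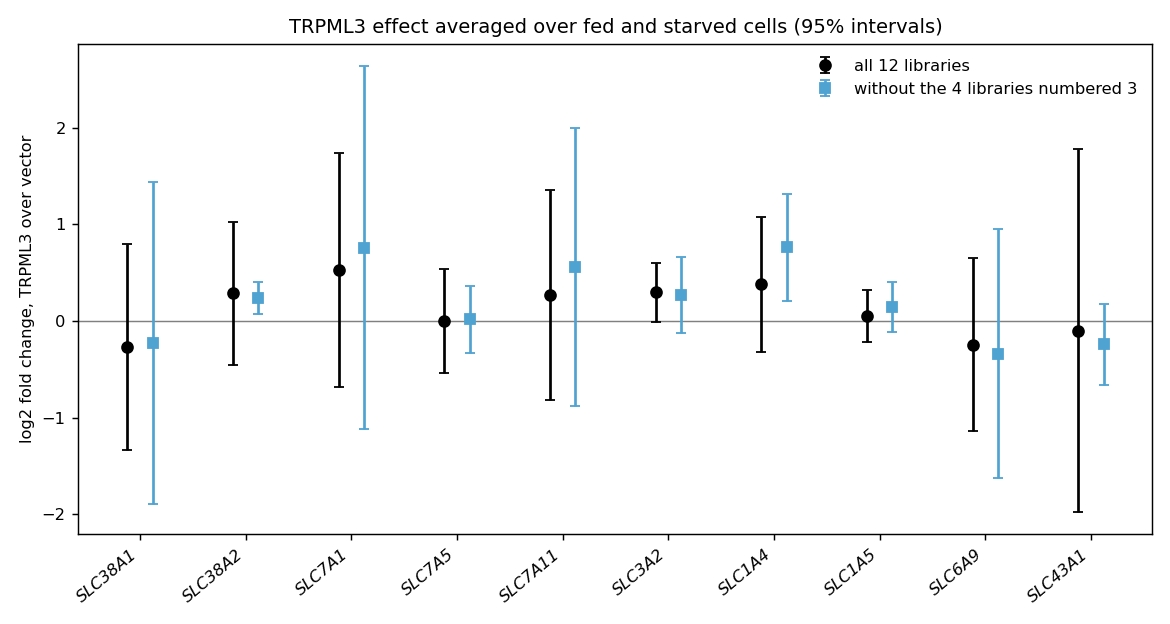
Log2 fold change of TRPML3 over vector averaged over fed and starved cells, with 95% intervals, for all 12 libraries and without the 4 numbered 3. With all libraries every interval holds 0, and without those numbered 3 the intervals of SLC1A4 (0.21 to 1.32) and SLC38A2 (0.07 to 0.40) do not, the latter from the libraries that chose the gene.

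The third comparison asked whether the response to starvation differed between plasmids. No member passed this interaction test by edgeR, none had an unadjusted p under 0.05, and 0% of all genes passed after adjustment, while 374 genes (2.07%) had an unadjusted p under 0.05 and DESeq2 called 27 genes. Member log2 differences ran from -1.14 ± 0.97 in SLC38A1 to 1.07 ± 0.98 in SLC7A11. The starvation responses of SLC38A2 and SLC7A5 differed by -0.12 ± 0.67 and 0.01 ± 0.49 between TRPML3 and vector cells, with 95% intervals of -1.60 to 1.36 and -1.06 to 1.09. Without the libraries numbered 3 the difference for SLC38A2 was -0.24 ± 0.14 (-0.57 to 0.09), and 0 of 10 members were at an unadjusted p under 0.05, beside 4.01% of all genes.

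Related genes were examined as lists that were also drawn up with earlier results of these data in view. No gene of any list passed the edgeR threshold in a TRPML3 contrast. Of 23 other surface transporters of amino acids, 19 were tested, and 1 of them passed for starvation in the replicates numbered 3. As above, the spread behind these calls is that of replicates 1 and 2. SLC6A6, the taurine transporter, had 8.52 and 13.3 CPM in fed and 29.6 and 42.5 CPM in starved libraries (log2 fold change 1.74 ± 0.21, edgeR adjusted p = 0.0325). In the other replicates SLC6A6 had 34.2 to 43.6 CPM in fed and 23.3 to 26.5 CPM in starved libraries, so its direction there was the opposite, as in SLC38A2. SLC6A6 is also in the list of 6 osmotic response genes, of which it was the only one to pass. None of the 11 tested lysosomal amino acid transporters passed in replicates 3. The smallest p-values among them were those of the histidine carrier SLC15A4 (-1.44 ± 0.40, edgeR adjusted p = 0.150) and the cystine carrier CTNS (-1.26 ± 0.49, edgeR adjusted p = 0.250).

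Among 17 regulators of the amino acid response, 1 passed in replicates 3. CEBPG, which encodes a dimer partner of ATF4, had 128.7 and 97.3 CPM in fed and 28.5 and 26.9 CPM in starved libraries (log2 fold change -2.01 ± 0.24, edgeR adjusted p = 0.0314). In the other replicates it had 61.1 to 92.4 CPM in fed and 188.3 to 314.6 CPM in starved libraries. ATF4 itself had 298.8 and 285.8 CPM in fed and 459.0 and 535.1 CPM in starved libraries numbered 3 (0.76 ± 0.14, edgeR adjusted p = 0.0685). With TRPML3, EIF2AK1, the haem-regulated kinase that acts upstream of ATF4, had the smallest p of the list, with a log2 fold change of -0.78 ± 0.23 (unadjusted p = 0.00684, adjusted p 1.0 by edgeR). It had 82.2 to 89.0 CPM in the 3 TRPML3 fed libraries against 201.5 to 258.7 CPM in the 3 vector fed ones. In fed cells 7.09% of all genes were without overlap in this way. In starved cells the EIF2AK1 groups overlapped, since vector starved 3, at 160.3 CPM, lay inside the TRPML3 range of 99.2 to 274.7 CPM. The starved means were 214.4 CPM with vector and 202 CPM with TRPML3.

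None of the 16 amino acid synthesis enzymes passed in replicates 3, with GLUL (0.96 ± 0.31, adjusted p = 0.188, edgeR), the maker of glutamine, having the smallest p. None of 13 genes of glutathione and cystine handling passed either, where GCLM, a subunit of the first enzyme of glutathione synthesis, had a log2 fold change of -1.05 ± 0.15 (edgeR adjusted p = 0.0521). None of 10 ubiquitin ligases and arrestins that remove carriers from the cell surface passed, with ARRDC4 at -0.57 ± 0.23 (edgeR adjusted p = 0.261). For TRPML3 the smallest unadjusted p of the synthesis enzymes was that of PSAT1 in serine synthesis, with an average log2 fold change of 0.25 ± 0.09 (edgeR adjusted p 1.0).

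As whole lists, the log2 fold changes for starvation in replicates 3 had a median of 0.29 in the other surface transporters, -0.32 in the lysosomal transporters, -0.15 in the regulators, -0.16 in the synthesis enzymes, -0.17 in glutathione and cystine handling, 0.34 in the osmotic genes and -0.09 in the ligases and arrestins, beside 0.04 over all genes. For the average TRPML3 effect the medians in the same order were 0.05, 0.05, 0.18, 0.07, 0.03, -0.06 and -0.11, beside -0.01 over all genes. The other genes named for small p-values in their lists did not pass either. For TRPML3 they included the aromatic amino acid carrier SLC16A10 (0.24), the light chain SLC7A7 (-0.43), the phosphatase subunit PPP1R15A (0.43), the proline synthesis enzyme PYCR1 (-0.42) and the chaperone gene HSPA1B (-0.41), as average log2 fold changes. For starvation in replicates 3 they included the glutamate carrier SLC1A3 (1.01), the inositol carrier SLC5A3 (-0.95), the sulfiredoxin gene SRXN1 (-0.65) and the ubiquitin ligase gene ITCH (-1.41). Of the antisense and divergent partner rows of members 3 were tested and none passed, with a log2 fold change of 0.51 ± 0.13 for SNHG1, which starts next to SLC3A2, in replicates 3 (edgeR adjusted p = 0.137).

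The genes whose pattern over the 12 libraries was most like that of SLC38A2 were sought among 9156 genes with a mean of at least 10 CPM, by the root mean square difference of centred log2 CPM. They were ACVR1C (0.177), RYBP (0.182), PGM2L1 (0.197), GADD45A (0.201), CCNG2 (0.205) and RHOB (0.216), where the deviation of SLC38A2 from its own mean was 0.677 on the same scale. No other member of the transporter group was among these 6. RYBP, a Polycomb-associated protein, had 310.4 to 384.9 CPM in the fed libraries numbered 1 and 2, 118.6 and 137.5 CPM in those numbered 3, and 144.9 to 193.9 CPM in the 6 starved ones. RHOB, a small GTPase, had 193.2 to 230.6, 49.0 and 69.0, and 70.4 to 99.6 CPM in the same libraries. These genes were picked for their likeness over libraries that share number, depth and serum state, so the likeness is a description.

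**Figure D5:**
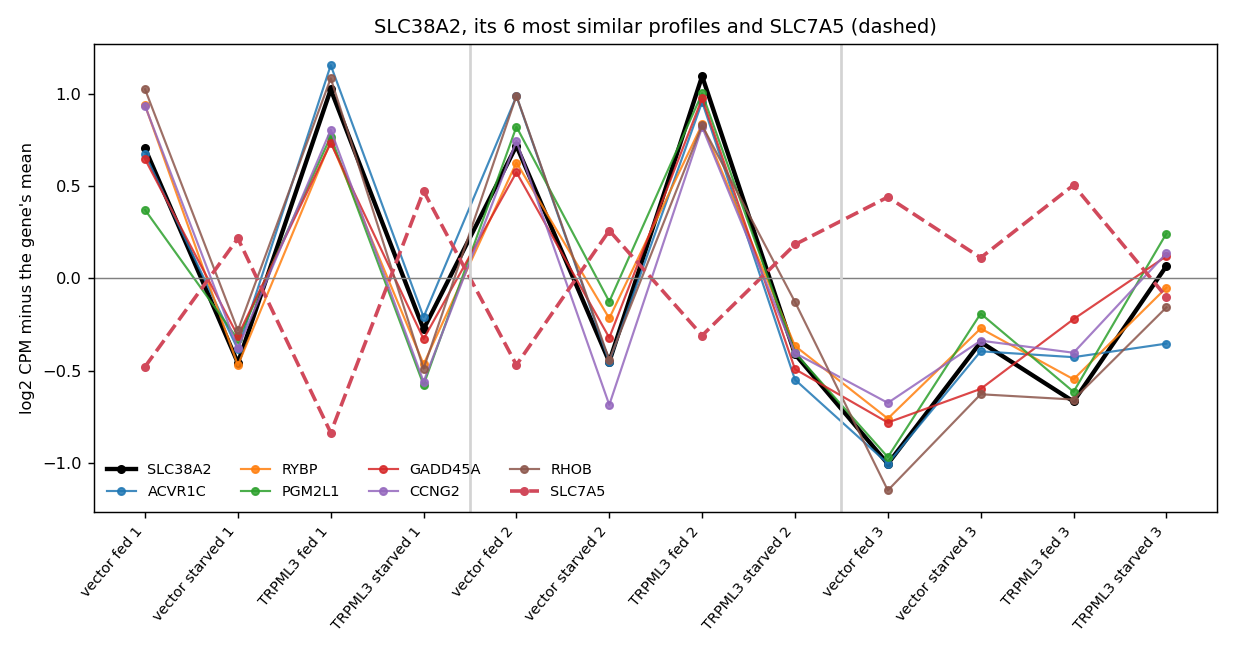
Log2 CPM of SLC38A2 (thick line), of the 6 genes most like it and, for contrast, of SLC7A5 (dashed line), each centred on its mean over the 12 libraries on the x axis. SLC38A2 and its 6 neighbours in pattern are highest in the fed libraries numbered 1 and 2, where SLC7A5 is lowest, and the root mean square differences from SLC38A2 lie between 0.177 and 0.216.

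Rows that overlap or adjoin SLC7A11, SLC6A9 and SLC43A1 were checked, because whether the counting used strand is not given in the sources used here. SLC7A11-AS1, antisense to SLC7A11, had 0.26 to 3.18 CPM and was well below SLC7A11. CCDC24 overlaps SLC6A9 and reached at most 1.75 CPM, against 1.10 to 10.3 CPM for SLC6A9. TIMM10, close to SLC43A1 on the same strand, had 13.1 CPM in vector fed 3 and 1.56 in TRPML3 fed 3. Their part in the members' values was not tested.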

How the data were processed

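Polyadenylated RNA of 12 libraries was sequenced from KAPA Hyper Prep libraries, per the labels' protocols. The submitters' processing notes name FastQC, fastp, HISAT2, StringTie, DESeq2 and GRCh38. Their versions, the annotation release and the counting rule are not given in the sources used here, so whether the whole numbers are direct reads or rounded estimates is unknown. The authors deposited raw counts per gene (41878 rows) and a normalized signal (23252 rows), which is the deposited count divided by a factor constant within a library. Totals were 33101540 to 43700547 counts, and 3 counts correspond to at most 0.0906 CPM.

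Counts were tested with edgeR 4.0.16 (R 4.3.3): TMM, filterByExpr, robust quasi-likelihood fit, Benjamini-Hochberg adjustment over 18030 genes at 0.05. TRPML3 contrasts used 4 group coefficients with 8 residual degrees of freedom. Starvation in replicates 3 used 8 coefficients with 4. Intervals are 95%. P-values of the TRPML3 contrasts measure the spread between the biological triplicates of the labels, and those of starvation in replicates 3 the spread between replicates 1 and 2 only, since each library numbered 3 has its own coefficient. Lengths and coordinates came from GENCODE 29 (93.9% of identifiers found).

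Members, lists and tests were chosen with earlier results of these data known. The naming rule took the 10 members, MCOLN3, up to 2 genes per list with the smallest p in the average TRPML3 effect and in starvation of replicates 3, and the 6 genes most like SLC38A2.

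Deviations from group means correlated between same-numbered vector and TRPML3 libraries with r of 0.11, 0.15 and 0.33 in fed cells and 0.13, 0.095 and 0.32 in starved cells. The main tests did not pair these libraries in either serum state. Between serum states r was -0.076 to 0.0075, so those were not paired. The replicate block gave both serum states of a number the same shift, so the pairs of fed and of starved libraries had no block of their own. Alternatives were DESeq2 1.42.0 (size factors, Wald test), library size only, other filters, the replicate block, MCOLN3 left out, limma 3.58.1 on the log2 of the deposited signal + 1, fewer libraries or coefficients, and left-out replicates. The scripts were tested on simulated data.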

Additional observations from a re-analysis of the deposited data

How the results depend on the processing

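No setting, left-out library or left-out replicate number gave a transporter past the threshold in a TRPML3 contrast (0 throughout), and the directions of SLC38A2, SLC3A2, SLC1A4, SLC7A1, SLC6A9 and SLC38A1 in the average effect held in every setting with all replicates. Over all genes, the DESeq2 Wald test called 30 genes in fed and 43 in starved cells, 27 in the interaction and 29 on average, where edgeR called 2, 1, 0 and 2. Leaving MCOLN3 out gave 1, 0 and 1 in fed, starved and average contrasts, and only the libraries compared gave 1 in fed and 3 in starved cells. With the replicate number as a block, 0, 0 and 1 genes passed in fed, starved and average contrasts, and no call on a transporter changed. Leaving out replicates gave 0 to 4 genes in fed, 0 to 5 in starved, 0 to 3 in the interaction and 0 to 6 on average.

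For starvation in replicates 3, 161 genes became 56 with at least 10 counts in every library, 1797 with DESeq2, 277 with plasmid and serum as additive terms, 0 with only the 4 libraries, and 20 to 63 with a library left out. Of the 2 transporters, 0, 1 and 0 passed with the 10-count filter (which removes SLC43A1), no filter and only the 4 libraries, and 1, SLC43A1, in each leave-one-out fit. The block was not run for this fit, whose numbers are not shared between serum states.

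Some signs changed. In the average TRPML3 effect they were SLC7A5 (-0.0068 with the 10-count filter, -0.092 by library size, -0.022 by limma), SLC7A11 (-0.050 by limma, -0.12 with the block), SLC1A5 (-0.030 by library size) and SLC43A1 (0.12 by limma, 0.077 with the block). Library size scaling moved the median of all genes to -0.10 in that contrast. Leaving out replicates gave -0.60 to 0.12 for SLC38A1, -0.80 to 0.69 for SLC7A11, -0.22 to 0.19 for SLC7A5, -0.39 to 0.20 for SLC43A1 and -0.0072 to 0.15 for SLC1A5. For starvation in replicates 1 and 2, SLC38A1 became 0.088 by limma and SLC43A1 -0.081 by library size, and left-out libraries gave -0.52 to 0.76 for SLC38A1, -0.98 to 0.91 for SLC7A1, -0.25 to 1.11 for SLC7A11 and -0.068 to 0.11 for SLC43A1. SLC7A11 in replicates 3 ran from -1.26 to 0.98. The causes were not tested. With 5 and 9 counts in 2 libraries, depth limits the fold of SLC43A1.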
